A study of Mus musculus with 12 samples.

Results

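The genes described here encode neurotransmitter receptors and G protein-coupled receptors of the mouse hippocampus, measured on Affymetrix MG-U74B arrays. They were taken by gene symbol, from the patterns for AMPA, kainate, NMDA and metabotropic glutamate receptors, GABA receptors, muscarinic and nicotinic acetylcholine receptors, serotonin, dopamine and adrenergic receptors, adhesion receptors and numbered Gpr genes. The pattern matched 56 probe sets of 47 genes. Probe sets that exceeded a log2 value of 4 in 3 or more of the 12 arrays were kept, which left 32 of 28 genes, and a gene with several was read from the brightest of them. The whole table held 4617 genes with a tested probe set of 1 symbol.

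The arrays formed 4 groups of 3: mutant animals given kainate, mutant animals given saline, control animals given kainate and control animals given saline. Kainate was injected intraperitoneally at 20 mg/kg and the hippocampus was taken 1 h after injection. All groups were littermates of both sexes, 5 to 6 weeks old, housed singly and handled for 5 days, and each array carried the pooled RNA of 3 animals. The series title names loss of CREB and CREM as the mutation, while the labels say only mutant or control and give neither the alleles nor a Cre line.

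Ionotropic glutamate receptors of the AMPA type carry most fast excitation in the hippocampus, and GABA-A receptors, which are chloride channels, carry most fast inhibition. Metabotropic glutamate, GABA-B and muscarinic receptors act more slowly through G proteins. Kainate is a glutamate analogue that opens kainate and AMPA receptors and evokes limbic seizures, and CREB and CREM are transcription factors that bind the cAMP response element of promoters.

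Of the 28 genes, 4 encode glutamate receptors: the AMPA subunits Gria1 and Gria3 and the metabotropic receptors Grm3 and Grm5. A further 4 encode GABA receptors, namely the GABA-A subunits Gabra4, Gabrb1 and Gabrb2 and the GABA-B subunit Gabbr1. The 3 acetylcholine receptor genes were the muscarinic Chrm5 and the nicotinic subunits Chrna4 and Chrnb2. Adhesion receptors, which join a long extracellular part to a G protein-coupled receptor, contributed 7 genes (Adgra2, Adgrb2, Adgrf5 and Adgrl1 to Adgrl4), and numbered Gpr genes the last 10. Of these 10, Gpr89, Gpr107, Gpr137 and Gpr180 have symbols of the family but are not classical G protein-coupled receptors. The other 19 matched genes stayed below the level minimum, among them the NMDA subunit gene Grin2d and the adrenergic Adra1b, the only matches of their families. No probe set matched the patterns for kainate, serotonin or dopamine receptors. Just inside the minimum lay Chrm5, above 4 in 3 arrays, and Gpr160, above 4 in 5 arrays. Just outside it lay Gpr4, which reached 4.10 in 1 array, and Gpr6, whose highest value was 3.88.

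Promoter sequence is shown because the mutation concerns factors that bind a promoter element, and because a pair of the genes shown start beside each other. RefSeq promoter windows on GRCm38.p6 were at hand for 23 of the 28 genes and not for Adgra2, Gpr17, Gria1, Gria3 and Grm5. Each window is given as the 250 bases before the annotated start, 5′ to 3′ along the gene's strand, with capitals for the core TGACG or its complement CGTCA. The Gabra4 window is chr5:71658309-71658558 on the minus strand, and the Gabrb1 window shown is chr5:71657671-71657920 on the plus strand. Those of Chrna4 (chr2:181039178-181039427), Gpr137 (chr19:6941194-6941443) and Adgrl2 (chr3:148954636-148954885) are on the minus strand. Gabra4 and Chrna4 are shown for their differences after kainate, Gabrb1 for its start beside Gabra4, Gpr137 as a gene with higher kainate means and a core match in 1 of its 3 windows, the one shown, and Adgrl2 as the adhesion gene lower in mutants.
Gabra4: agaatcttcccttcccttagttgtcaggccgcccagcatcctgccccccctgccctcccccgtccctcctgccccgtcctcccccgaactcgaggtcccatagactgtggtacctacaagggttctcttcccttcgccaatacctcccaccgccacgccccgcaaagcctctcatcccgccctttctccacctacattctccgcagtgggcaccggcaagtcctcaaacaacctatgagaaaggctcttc
Gabrb1: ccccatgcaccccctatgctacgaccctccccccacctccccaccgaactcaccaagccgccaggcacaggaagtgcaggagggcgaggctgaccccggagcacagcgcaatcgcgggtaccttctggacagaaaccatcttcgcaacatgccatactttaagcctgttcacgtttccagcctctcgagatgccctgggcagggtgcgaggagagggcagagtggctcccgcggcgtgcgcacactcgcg
Chrna4: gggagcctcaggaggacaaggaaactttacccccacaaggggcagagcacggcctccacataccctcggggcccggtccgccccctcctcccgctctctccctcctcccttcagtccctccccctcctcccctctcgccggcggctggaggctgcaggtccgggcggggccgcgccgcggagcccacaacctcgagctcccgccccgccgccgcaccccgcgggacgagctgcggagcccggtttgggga
Gpr137: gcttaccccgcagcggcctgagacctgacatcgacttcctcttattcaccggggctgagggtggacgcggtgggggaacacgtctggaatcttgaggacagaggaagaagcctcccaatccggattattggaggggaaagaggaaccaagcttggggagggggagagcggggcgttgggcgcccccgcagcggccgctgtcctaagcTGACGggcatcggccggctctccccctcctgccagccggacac
Adgrl2: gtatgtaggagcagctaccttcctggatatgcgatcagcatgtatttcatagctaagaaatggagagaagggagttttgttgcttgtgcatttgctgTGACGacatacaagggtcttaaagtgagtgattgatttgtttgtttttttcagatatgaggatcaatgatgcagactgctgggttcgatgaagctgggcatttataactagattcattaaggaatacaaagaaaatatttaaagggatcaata

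The core was searched on both strands, and the full cAMP response element, TGACG directly followed by TCA, on either strand, since it reads the same on both and holds both core forms in overlap. None of the 33 windows of the 23 genes held the full element, against 1.55% of all 32851 windows in the table. The core was present in 8 of the 33 windows (24.2%), which belonged to 7 genes, against 17.8% of all windows. In the Gpr137 window shown it began 43 bases before the start, and in the Adgrl2 window 153 bases before it. The other 5 genes were Chrnb2, Gpr83, Gpr89, Gpr146 and Gpr180. Gabra4 starts at position 71658308 on the minus strand and Gabrb1 at 71657921 on the plus strand, so the transcripts overlap at their 5′ ends and the starts lie 387 bases apart. A match is a string of letters, and its absence from these 250 bases says nothing of binding elsewhere.

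The arrays numbered 1 stood apart from those numbered 2 and 3 in all 4 groups. They separated on the first principal component, which held 52.8% of the variance of the 6334 tested probe sets. Their BioB hybridisation spikes averaged 6.39 to 6.93 on the log2 scale, against 8.09 to 9.11 in the other 8 arrays, and their Gapdh 3′ minus 5′ differences were -0.42 to -0.36, against -0.33 to -0.03. Array medians were alike, from 3.84 to 3.93 in arrays numbered 1 and from 3.77 to 4.07 in the others. Among the 28 genes, 6 (21.4%) differed by over 0.5 between arrays numbered 1 and the rest, close to 21.2% of all tested probe sets. Results are therefore also given without the arrays numbered 1, and with the replicate number as a block. A fit without the arrays numbered 1 keeps only the arrays numbered 2 and 3 of each group, so its p values rest on fewer arrays. Creb1 averaged 7.97 ± 0.44 and 8.23 ± 0.12 in mutants after kainate and saline, against 6.98 ± 0.15 and 7.35 ± 0.35 in controls (SD, n = 3 each), so its probe set was higher in the animals labelled mutant. Crem was near background in every group, at 2.93 to 3.16. The labels do not place these probe sets relative to a deletion, so they do not check the genotypes, and mutant is used here as the labels use it. The kainate treatment was visible in Dusp5, a phosphatase gene induced by neuronal activity, which averaged 10.7 and 10.4 after kainate in mutants and controls, against 8.07 and 8.01 with saline. The glutamatergic neuron marker Slc17a7 was measured in all groups, with arrays from 10.5 to 10.9.

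The first question was how receptor transcripts differed 1 h after kainate. None of the 28 genes passed an adjusted p of 0.05 in any of the 7 comparisons with limma, a linear model fitted over all tested probe sets. At this threshold 0.174% of all probe sets passed for kainate in mutants, 0.158% for kainate in controls and 0.41% for kainate averaged over genotypes. At an unadjusted p under 0.05, 1 of the 28 genes passed in mutants (background 6.28%), 4 in controls (background 11.6%) and 6 in the average (background 14.7%). With the replicate number as a block, 3 of 28 genes passed the adjusted threshold in the average, Grm5, Gria1 and Chrna4, against 7.63% of all probe sets, and 0 passed in mutants (background 0.363%) or controls (background 0.584%). Without the arrays numbered 1, 5 of 28 passed in mutants (background 9.41%), 5 in controls (background 10.1%) and 7 in the average (background 22.3%). With the block as well, these counts were 4 (background 11.5%), 6 (background 12.5%) and 7 (background 24.9%). The count of 7 is near the share of all probe sets. In pooled tissue, a lower value can stand for fewer cells of a type or for less RNA per cell, which cannot be told apart here.

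Grm5, the postsynaptic group I metabotropic glutamate receptor coupled to phospholipase C, gave the lowest p of the 28 genes for kainate in both genotypes. Its log2 values were 6.74, 6.31 and 6.15 in mutants after kainate, against 7.02, 7.79 and 7.51 in mutants with saline. In controls they were 7.39, 6.85 and 6.51 after kainate, against 7.72, 8.01 and 7.94 with saline. The groups did not overlap in either genotype, and the difference was negative in all 6 pairs of arrays with a shared number. It was smallest in number 1, at -0.28 in mutants and -0.32 in controls, and -1.49 to -1.16 in the other 4 pairs. Averaged over genotypes Grm5 was lower by 2.01-fold after kainate (log2 -1.01, SE 0.18), with an adjusted p of 0.0515 by limma and of 0.0141 with the replicate block. Without the arrays numbered 1 the average was -1.36, with an adjusted p of 0.000126. The log2 difference was -1.04 in mutants and -0.97 in controls (SE 0.26 each), with adjusted p of 0.424 and 0.381 with all arrays, and of 0.00174 and 0.00281 without the arrays numbered 1.

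Gria1 and Gria3, pore-forming subunits of AMPA receptors, had smaller differences of the same sign. Gria1 measured 11.07, 10.59 and 10.72 in mutants after kainate, against 11.14, 11.03 and 10.94 in mutants with saline. In controls it measured 11.17, 10.66 and 10.67 after kainate, against 11.20, 11.04 and 11.17 with saline. The groups overlapped through the arrays numbered 1, while every pair of shared number was negative. Its average difference was -0.27 (SE 0.11), a 1.21-fold lower level, with an adjusted p of 0.291, of 0.0446 with the replicate block, and of 0.00246 without the arrays numbered 1. Gria3 measured 9.60, 9.01 and 9.30 in mutants after kainate, against 9.36, 9.68 and 9.65 with saline, so these groups overlapped. In controls its values were 9.31, 9.07 and 9.13 after kainate, against 9.46, 9.73 and 9.54 with saline, which did not overlap. The average difference of Gria3 was -0.33 (SE 0.11), with an adjusted p of 0.223 (0.0845 with the block) and of 0.00319 without the arrays numbered 1. Without those arrays both AMPA genes passed in mutants and in controls, but with the block as well Gria1 missed in mutants (adjusted p = 0.0502).

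Grm3, a presynaptic and astrocytic group II receptor gene, was dominated by array number. It read 5.73, 3.91 and 4.01 in mutants after kainate, against 5.64 in number 1 and at most 4.08 in numbers 2 and 3 with saline, and 5.79, 3.85 and 4.07 in controls after kainate, against 5.85, 4.24 and 4.29 with saline. Arrays numbered 1 were higher by 1.70 on average, and the kainate difference averaged -0.12 (SE 0.50), well inside that spread. For the 4 glutamate receptor genes together, the median kainate difference was -0.25 in mutants and -0.35 in controls. The medians over all tested probe sets were -0.04 and 0.02. All 4 genes were below 0 in both genotypes, as were 3694 of 6334 probe sets in mutants and 2959 in controls. In mutants the Grm3 difference was only -0.02, with 2 of its 3 pairs of shared number positive.

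**Figure D1:**
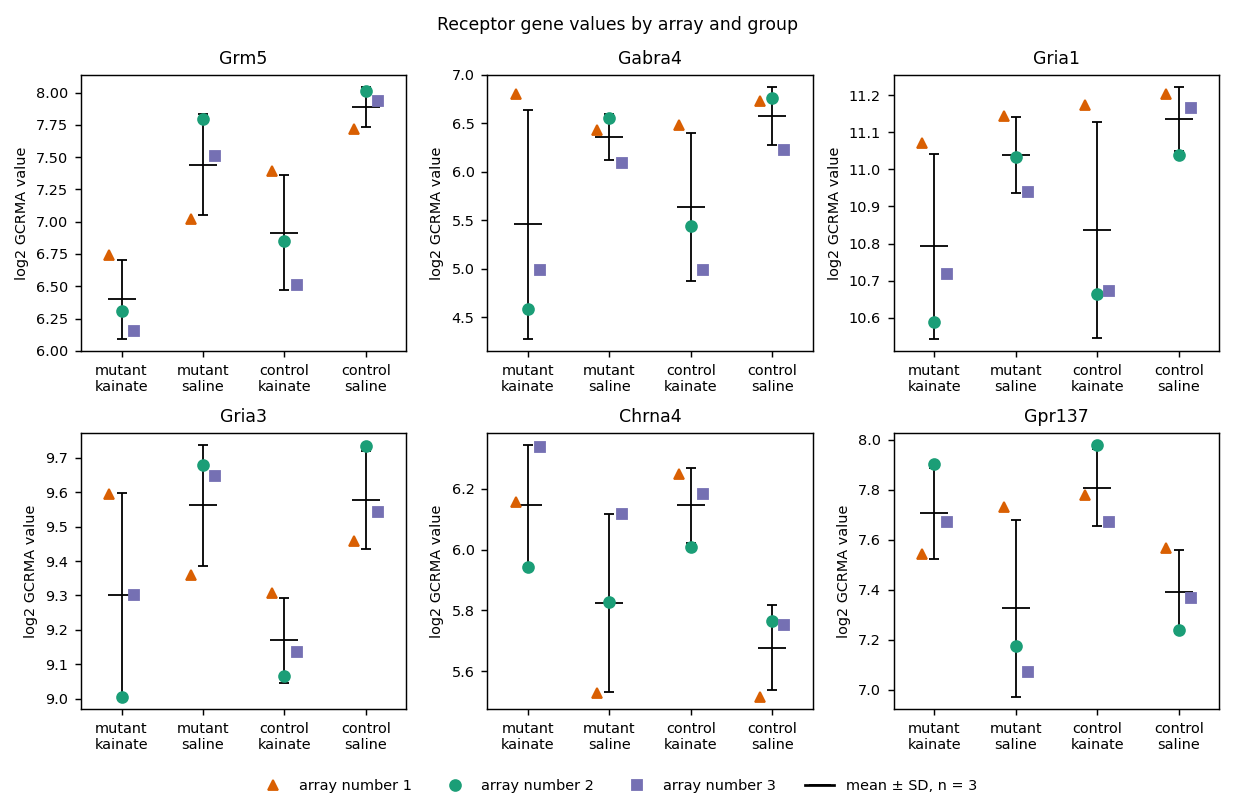
Log2 GCRMA values of Grm5, Gabra4, Gria1, Gria3, Chrna4 and Gpr137 in each array, by group, with a separate log2 axis for each gene. Symbols give the array number and bars the mean ± SD of 3 arrays. Grm5 after kainate lies at 6.15 to 6.74 in mutants and 6.51 to 7.39 in controls, below the saline arrays of the same genotype. In Gabra4 and Gria1 the triangles of number 1 lie above the other arrays in both kainate groups, and close to other arrays in the saline groups.

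Among the GABA-A subunits, Gabra4, an alpha subunit prominent in dentate granule cells, had the widest difference after kainate. Its values were 6.80, 4.59 and 4.99 in mutants after kainate, against 6.43, 6.55 and 6.09 in mutants with saline. In controls they were 6.48, 5.44 and 4.99 after kainate, against 6.73, 6.76 and 6.23 with saline. The 4 kainate arrays numbered 2 and 3 lay below every saline array, whereas those numbered 1 lay among the saline arrays or above them. The average difference was -0.92 (SE 0.37), with an adjusted p of 0.297, and of 0.0545 with the block. Without the arrays numbered 1 it was -1.41, with an adjusted p of 0.000809, and both genotypes passed, at -1.53 in mutants and -1.28 in controls.

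Gabrb1 and Gabrb2 encode beta subunits of the same receptor, and each had a pair of tested probe sets that differed in their response. The brighter Gabrb1 set (112172_at) read 9.41, 8.87 and 8.95 in mutants after kainate, against 9.24, 8.98 and 8.98 with saline. In controls it read 9.42, 8.98 and 8.96 after kainate, against 9.51, 9.01 and 8.76 with saline, and its average difference was 0.02 (SE 0.15). The dimmer set (105616_at) read 5.72, 7.20 and 6.63 in mutants after kainate, against 6.20, 7.79 and 7.48 with saline. In controls it read 5.91, 6.64 and 6.90 after kainate, against 6.46, 7.40 and 7.41 with saline. The groups overlapped since arrays numbered 1 were lower by 1.11 on average, yet all 6 pairs of shared number were negative, from -0.85 to -0.49. The average was -0.62, with an adjusted p of 0.436, of 0.0221 with the block, and of 0.009 without the arrays numbered 1.

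For Gabrb2 the brighter set (113662_at) averaged -0.08 (SE 0.20). Its values ran from 9.94 to 10.77 in mutants after kainate and from 9.97 to 10.50 with saline, and from 9.74 to 10.43 in controls after kainate and from 10.02 to 10.73 with saline. The dimmer set (105760_at) read 7.08, 7.11 and 6.82 in mutants after kainate, against 7.22, 7.56 and 7.55 with saline. In controls it read 7.22, 7.16 and 7.18 after kainate, against 7.45, 7.69 and 7.34 with saline. These groups did not overlap in either genotype, and the average was -0.38 (SE 0.10), with an adjusted p of 0.15, of 0.0384 with the block, and of 0.0154 without the arrays numbered 1. Which stretch of the transcript each set reads was not analysed here. Gabbr1, the ligand-binding subunit of the GABA-B receptor, averaged -0.12 (SE 0.12), with overlapping groups from 8.79 to 9.35.

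Markers of interneurons, which release GABA, were followed beside these genes. Of 13 listed markers 3 passed the level minimum, Gad2, Cnr1 and Maf. Their mean log2 value per array was 7.47 to 7.91 in mutants after kainate and 7.88 to 8.18 with saline, and 6.87 to 7.56 in controls after kainate and 7.91 to 8.17 with saline. Gad1 stayed between 2.24 and 2.79 in all arrays. With limma 0 of the 3 passed for kainate with all arrays, and 1 was lower in the average with the block (background 7.63%). Without number 1 the count was 0 in mutants (background 9.41%) and all 3 were lower in controls (background 10.1%). This list too was chosen with earlier results of these data known, so its counts are not independent evidence. The part of these markers in the GABA receptor values was not tested.

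The 3 acetylcholine receptor genes had positive kainate differences in controls, as had 3375 of the 6334 tested probe sets. Chrna4, the alpha subunit of the high-affinity brain nicotinic receptor, read 6.16, 5.94 and 6.34 in mutants after kainate, against 5.53, 5.83 and 6.12 with saline, and these groups overlapped. In controls it read 6.25, 6.01 and 6.18 after kainate, against 5.52, 5.77 and 5.75 with saline, without overlap. The difference was positive in all 6 pairs and averaged 0.40 (SE 0.12), 1.32-fold, with an adjusted p of 0.173 and of 0.0429 with the replicate block. The pairs of number 1 were the widest, 0.63 in mutants and 0.73 in controls, and the gene did not pass without them. Its second tested set (110657_at), close to the level minimum, averaged -0.09 in mutants and 0.31 in controls, so the sign in mutants depended on the probe set. Chrnb2, the beta subunit that pairs with it, was higher in all 6 pairs but by only 0.11 on average (SE 0.08, adjusted p = 0.557).

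**Figure D2:**
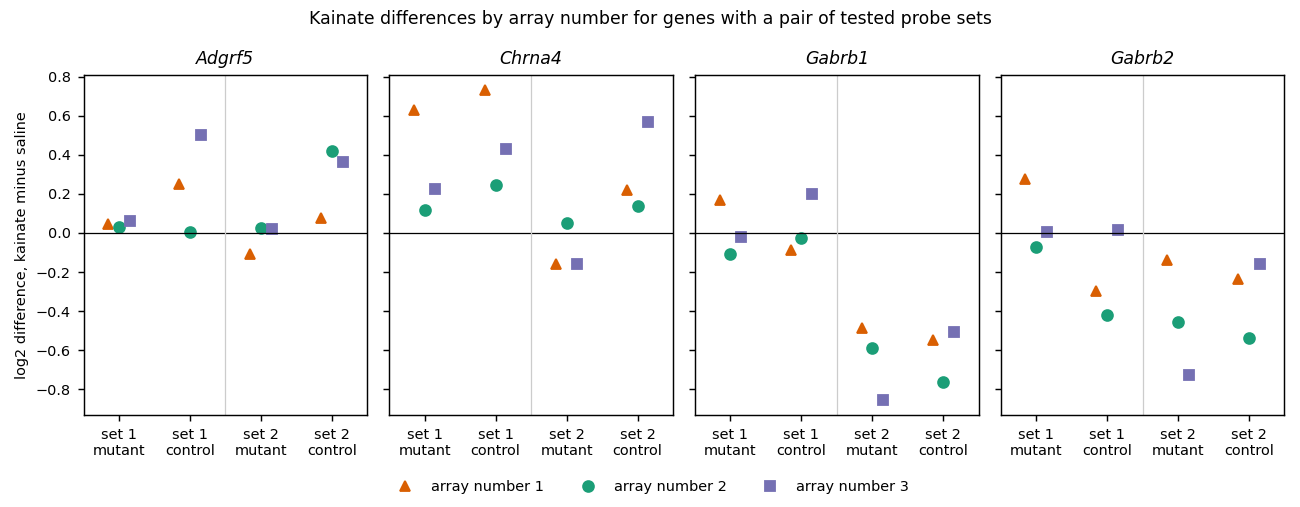
Kainate minus saline differences (log2) by array number for Adgrf5, Chrna4, Gabrb1 and Gabrb2, which had a pair of tested probe sets each; set 1 has the higher mean. Set 2 of Gabrb1 and of Gabrb2 lies below 0 in all 6 pairs, while set 1 of both scatters around 0.

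Chrm5, a muscarinic receptor gene, rested on single arrays. It read 3.49, 3.73 and 4.01 in mutants after kainate, against 3.65, 3.77 and 5.18 with saline, and 3.83, 3.82 and 4.68 in controls after kainate, against 3.53, 3.78 and 3.59 with saline. Only arrays numbered 3 exceeded 4, so the gene passed the level minimum through them alone.

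Adhesion receptors differed little after kainate, with average differences from -0.14 to 0.25 over the 7 genes. Adgrb2, a brain adhesion receptor also known as Bai2, read 10.31, 10.37 and 10.53 in mutants after kainate, against 10.61, 10.10 and 10.02 with saline. In controls it read 10.72, 10.55 and 10.57 after kainate, against 10.54, 9.96 and 10.29 with saline. The control groups did not overlap and the mutant groups did, through the saline array numbered 1. Its average was 0.25 (SE 0.12), with an adjusted p of 0.367, and 0.41 with an adjusted p of 0.0073 without the arrays numbered 1. Adgrl1, Adgrl2 and Adgrl3 encode latrophilins, adhesion receptors of synapses, and averaged -0.06, -0.04 and 0.06. Arrays numbered 1 exceeded the others by 0.96 in Adgrl3.

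Of the numbered Gpr genes, Gpr137, whose product sits in lysosomal membranes, had the largest average difference after kainate. It read 7.54, 7.90 and 7.67 in mutants after kainate, against 7.73, 7.18 and 7.07 with saline, and 7.78, 7.98 and 7.67 in controls after kainate, against 7.57, 7.24 and 7.37 with saline. The control groups were apart, and the mutant groups overlapped through the saline array numbered 1. The average was 0.40 (SE 0.13), with an adjusted p of 0.219, of 0.0658 with the block, and of 0.00437 without the arrays numbered 1. Gpr22, an orphan receptor gene, read 9.72, 8.94 and 9.15 in mutants after kainate, against 9.60, 9.50 and 9.43 with saline. In controls it read 10.32, 9.09 and 9.46 after kainate, against 9.95, 9.84 and 9.47 with saline, so all groups overlapped. Its average was -0.18 (SE 0.21), and -0.40 with an adjusted p of 0.0333 without the arrays numbered 1. The other 8 genes averaged between -0.07 and 0.21, the highest being Gpr146 at 0.21 (SE 0.16) and Gpr83 at 0.19 (SE 0.09), and none passed with all arrays, with the block or without the arrays numbered 1.

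Groups that did not overlap were found in 1 of 28 genes, Grm5, for kainate in mutants, against 9.13% of all probe sets, and in 7 genes for kainate in controls, against 19.4%. Among the 7, Gria3 and Grm5 were lower and Adgrb2, Chrm5, Chrna4, Gpr137 and Gpr160 higher after kainate. Gpr160 exceeded 4 in all control kainate arrays (4.04 to 4.26) and in no control saline array. Chrm5 exceeded 4 in the control kainate array numbered 3 (4.68). Neither gene would pass the level minimum without the control kainate arrays, so their place in this count is not independent of the filter. The same sign in all 6 pairs was found in 5 genes, against 11.4% of all probe sets, with Adgrf5, Chrna4 and Chrnb2 higher and Gria1 and Grm5 lower. The pairs of Adgrf5 ranged from 0.007 to 0.50. Its second tested set (108812_at) was lower in 1 pair in mutants, at -0.11.

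**Figure D3:**
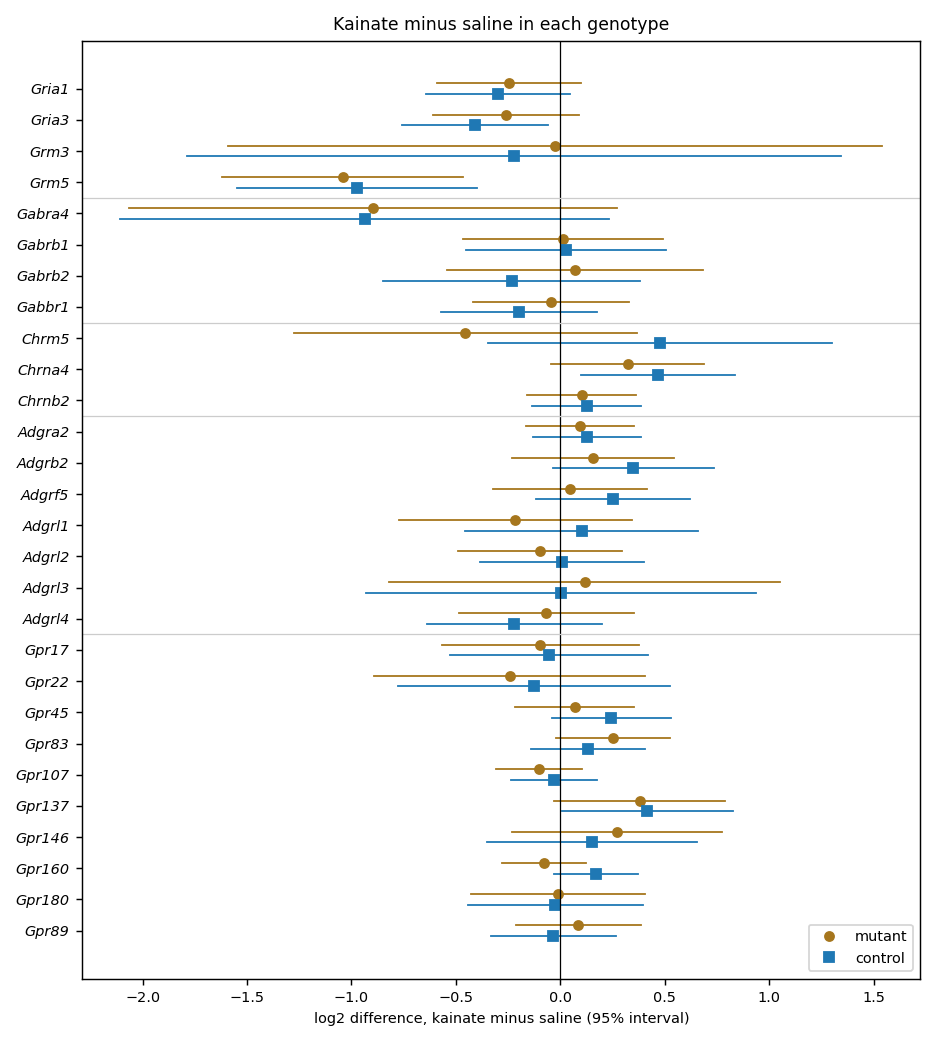
Kainate minus saline difference of the 28 genes (log2, 95% interval from limma) in mutants (circles) and controls (squares), grouped as glutamate, GABA, acetylcholine, adhesion and numbered Gpr genes. The intervals of Grm5 lie below 0 in both genotypes, at -1.04 in mutants and -0.97 in controls, and the points of most genes lie close together.

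The second question was whether the response to kainate depended on genotype. The difference of responses, mutant minus control, passed in 0 of 28 genes with limma, at an adjusted p or at an unadjusted p under 0.05, against 0 and 2.32% of all probe sets. The adjusted count was also 0, of the 28 genes and of all probe sets, with the block, without the arrays numbered 1, and with both. It was -0.07 for Grm5 (95% interval -0.88 to 0.75), 0.04 for Gabra4 (-1.62 to 1.69), 0.05 for Gria1 (-0.43 to 0.54) and 0.15 for Gria3 (-0.35 to 0.64). For Chrna4 it was -0.15 (-0.67 to 0.37) and for Gpr137 -0.04 (-0.62 to 0.54). These intervals include differences as large as the response of each gene, except for Grm5, so equal responses were not shown. For Grm5 the interval ends short of its average response of -1.01. The widest difference of the 28 was that of Chrm5, -0.93 (-2.09 to 0.23). For Adgrl1, Gpr160, Adgrf5 and Gpr45 the difference of responses was -0.32, -0.25, -0.21 and -0.18.

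The third question was how mutants differed from controls with each treatment. With limma 0 of 28 genes passed the adjusted threshold with saline (background 0), after kainate (background 0.0632%) and averaged over treatments (background 0.253%), and the counts were also 0 with the block (background 0.142%, 0.111% and 2.32%). Without the arrays numbered 1 they were 0 again (background 0.0789%, 0.189% and 0.726%), and with the block as well (background 0.142%, 0.237% and 1.26%). At an unadjusted p under 0.05 the counts were 0 (background 3.88%), 1 (background 4.67%) and 3 (background 6.47%). Groups did not overlap in 2 genes with saline, against 8.81% of all probe sets, and in 4 after kainate, against 10.7%. The 4 included Gpr160, higher in the control kainate arrays, without which it would not pass the level minimum. The same sign in all 6 pairs was found in 6 genes, against 11% of all probe sets: Adgrl4 and Gpr17 were higher and Adgrl2, Gpr22, Gpr89 and Grm5 lower in mutants. For Gpr89 the difference was -0.24 with saline and -0.18 averaged over treatments. After kainate it was 0.28 for Adgrl4 and -0.16 for Gpr160. With saline it was 0.56 for Chrm5, which rested on the arrays numbered 3.

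Adgrl2, the latrophilin-2 gene, had the lowest p of the 28 genes for genotype after kainate and averaged over treatments, while Gpr17 had it with saline. The Adgrl2 values were 6.66, 7.03 and 7.03 in mutants after kainate, against 7.06, 7.47 and 7.47 in controls after kainate. With saline they were 7.01, 7.05 and 6.95 in mutants, against 7.15, 7.17 and 7.65 in controls. Neither pair of groups overlapped, though the margin was narrow with both treatments. The average difference was -0.37 (SE 0.13), a 1.3-fold lower level, with an adjusted p of 0.502, and of 0.0985 with the block. It was -0.43 after kainate (adjusted p = 0.914) and -0.32 with saline (adjusted p = 1).

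Grm5 was also lower in mutants in all 6 pairs, by values from -0.69 to -0.22. The average was -0.48 (SE 0.18), with an adjusted p of 0.622, and of 0.249 with the block. After kainate the mutant arrays (6.15 to 6.74) overlapped the control arrays (6.51 to 7.39), and so they did with saline, at 7.02 to 7.79 against 7.72 to 8.01. Principal neuron markers, of which 6 of 13 were measured, had array means of 8.39 to 8.48 in mutants after kainate, against 8.68 to 8.84 in controls, and of 8.15 to 8.59 with saline, against 8.60 to 8.92. The 6 markers were not alike: 4 were lower and 2 higher in mutants after kainate, and 5 lower and 1, Slc17a7, higher with saline. After kainate Fibcd1 averaged 8.32 in mutants, against 8.99 in controls, and Neurod2 8.01 against 8.57. In the same comparison Calb1 averaged 7.22 against 7.06, Ociad2 9.48 against 9.45 and Slc17a7 10.67 against 10.73. Averaged over treatments 0 of the 6 passed with all arrays (background 0.253%). In mutants 2 were lower with the block (background 2.32%) and 2 without the arrays numbered 1 (background 0.726%). With saline 1 was lower with the block (background 0.142%). The list was chosen with earlier results of these data known, so its counts are not independent evidence. The part of these markers in the Grm5 values was not tested.

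Gpr17, a receptor gene of oligodendrocyte precursors, was higher in mutants. It read 7.05, 7.41 and 6.96 in mutants after kainate, against 6.94, 7.03 and 6.35 in controls after kainate. With saline it read 7.54, 7.26 and 6.90 in mutants, against 6.87, 6.81 and 6.79 in controls. The saline groups were apart and the kainate groups overlapped, and the average was 0.39 (SE 0.15), 1.31-fold, with an adjusted p of 0.639, and of 0.122 with the block. Of 12 oligodendrocyte markers only Mobp and Gpr17 itself were measured. Mobp averaged 8.15 in mutants after kainate, against 8.24 in controls, and 8.28 in mutants with saline, against 8.61 in controls, while Sox10, which marks the whole lineage, was at 1.71 to 2.35 in all arrays.

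Glial markers were followed in the same comparisons. The 5 measured microglia markers of 15 averaged 6.67 to 6.98 per array in mutants after kainate, against 6.08 to 6.17 in controls, and 6.30 to 6.76 in mutants with saline, against 5.87 to 6.04 in controls. Averaged over treatments 1 of the 5 was higher in mutants with all arrays (background 0.253%), 4 with the block (background 2.32%) and 1 without the arrays numbered 1 (background 0.726%). The 9 measured astrocyte markers of 16 averaged 8.84 to 8.98 in mutants after kainate, against 8.71 to 8.76 in controls, and 9.01 to 9.14 with saline, against 8.73 to 8.88. Of the 9, 0 passed averaged over treatments with all arrays or without the arrays numbered 1, and 3 were higher in mutants with the block (background 2.32%). The glial marker lists were chosen with earlier results of these data known, so these counts are not independent evidence. The part of these markers in the receptor values was not tested. Adgrl4, an endothelial adhesion receptor gene, averaged 0.21 higher in mutants (SE 0.13). Of 11 endothelial and mural markers 4 were measured. Their array means were 5.94 to 6.33 in mutants after kainate, against 5.84 to 6.04 in controls. With saline they were 5.98 to 6.18 in mutants, against 6.08 to 6.26 in controls.

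**Figure D4:**
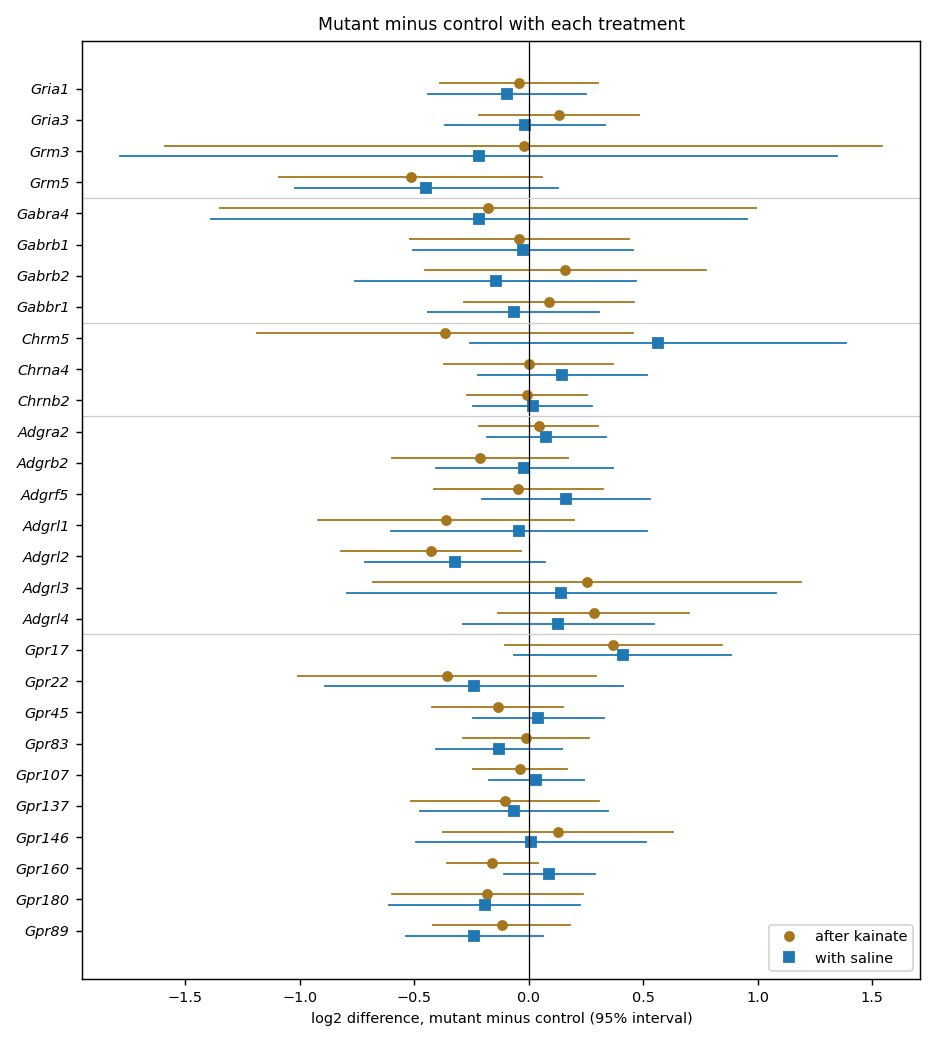
Mutant minus control difference of the 28 genes (log2, 95% interval from limma) after kainate (circles) and with saline (squares). Adgrl2 lies at -0.43 and -0.32 and Gpr17 at 0.37 and 0.41, and all intervals with saline include 0.

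Genes that act downstream of or beside these receptors were counted for comparison. Of all probe sets, 0.41% passed for kainate averaged over genotypes with all arrays, 7.63% with the block and 22.3% without the arrays numbered 1. For mutants averaged over treatments these shares were 0.253%, 2.32% and 0.726%. Of 8 measured G protein subunit genes (28 listed), 0 passed with all arrays for kainate averaged over genotypes. With the block Gnai3, an inhibitory alpha subunit, was lower after kainate (-0.85, adjusted p = 0.0312, and 0.108 without the block). Among receptor kinases and arrestins Arrb2 alone of 10 was measured, at 0.34 (adjusted p = 0.36, 0.177 with the block, and 0.0192 without the arrays numbered 1). Of 17 measured scaffold and auxiliary subunit genes (43 listed) 0 passed with all arrays. With the block Shisa6, an AMPA receptor auxiliary protein, was lower after kainate (-0.41, adjusted p = 0.0346) and in mutants (-0.48, adjusted p = 0.0313). Homer2, which links group I metabotropic receptors to calcium stores, was lower in mutants with the block (-0.53, adjusted p = 0.0115). Without the block the adjusted p of these values were 0.524, 0.956 and 0.101. Leaving out the arrays numbered 1 instead gave 0.0329, 0.185 and 0.152. Without the arrays numbered 1, 1 of the 8 G protein subunit genes was higher and 2 lower after kainate in the average (background 22.3%). Of the 17 scaffold and auxiliary genes, 4 were higher and 3 lower in that setting.

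Of 17 measured second messenger enzymes (37 listed), 0 passed with all arrays. Prkcb, a protein kinase C, was lower in mutants with the block (-0.56, adjusted p = 0.0202). Its adjusted p was 0.999 without the block and 0.0826 without the arrays numbered 1. Without the arrays numbered 1, 2 of the 17 were higher and 2 lower after kainate in the average (background 22.3%). Of 47 receptor genes outside the symbol pattern 4 were measured. With the block, P2rx7, an ATP-gated channel, and Ednrb, an endothelin receptor that is also on the astrocyte list, were higher in mutants by 0.55 and 0.36 (adjusted p = 0.0461 and 0.0198). With all arrays and no block 0 of the 4 passed, and these p were 0.381 and 0.244, and 0.347 and 0.105 without the arrays numbered 1. Cnr1, also on the interneuron list, averaged -0.28 after kainate with all arrays (adjusted p = 0.248, and 0.106 with the block). It passed as lower without the arrays numbered 1, in the average (adjusted p = 0.00241) and in controls (adjusted p = 0.0124). Of 15 measured immediate early and feedback genes (29 listed), 10 rose after kainate averaged over genotypes with all arrays (background 0.41%). In mutants 9 rose (background 0.174%) and in controls 7 (background 0.158%), and 0 fell. In the average 12 rose and 1, Srf, fell with the block (-0.43, adjusted p = 0.0372, background 7.63%). Also, 12 rose and Srf fell without the arrays numbered 1 (background 22.3%). The median difference of these 15 genes was 1.30 in mutants and 1.00 in controls, against -0.02 and 0.01 for the 28 receptor genes. This list was chosen with earlier results of these data known, so its rise is not an independent result.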

How the data were processed

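Total RNA of 12 hippocampal pools was hybridised to MG-U74B arrays. The authors deposited 1 log2 value per probe set and array; the submitters' processing notes name GCRMA and R 2.4.1. GCRMA removes background estimated from probe sequences and combines the probes into 1 value per set. The settings were not given in the sources used here. Of 12477 table entries 66 were control probe sets. Platform annotation gave 10581 probe sets 1 gene symbol, 178 several and 1652 none, and all 47 matched symbols were found in the RefSeq gene table, with 0 changed.

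Probe sets over 4 (log2) in at least 3 of 12 arrays were tested (6334). The fit used limma 3.58.1 under R 4.3.3 (lmFit, then eBayes with trend on intensity), 1 mean per group over all arrays, and Benjamini-Hochberg adjustment at 0.05 over all tested probe sets within each of the 7 comparisons. The fit was tested on simulated data. The labels call replicates biological, and 3 arrays a group limit the precision. Levels served to pick 1 probe set per gene and to tell the sets of a gene apart, and were not compared between genes as abundance.

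Arrays of the same number in different groups deviated together from their group means in all 18 pairs (r from 0.361 to 0.881). The shift of the arrays numbered 1 alone can make all these correlations positive. For numbers 2 and 3 alone r was 0.361 to 0.696 within a number and 0.309 to 0.583 across, and these ranges overlap. The correlations therefore set number 1 apart and do not show that numbers 2 and 3 pair arrays. Pairs of shared number are pairs by label, and what a number shares is not in the labels. For the 28 genes the block fit is given where it changed a call.

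Genes given with values were those past the threshold with or without the block, the 5 lowest p in each comparison, Grm5, the member of each family with the highest mean, and genes with opposite signs in the genotypes. Other genes named with values were chosen after their values were seen. The members, the lists and the rules were chosen with earlier results of these data known. Alternatives were 2 normalizations, 2 level filters, no trend, the block alone or with quantile normalization, other probe sets, and leaving out arrays. The block without the arrays numbered 1 was added after the data were seen.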

Additional observations from a re-analysis of the deposited data

Results flagged for a closer look

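Chrm5, a muscarinic receptor gene, had kainate differences of opposite sign in the genotypes. By array number they were -0.16, -0.04 and -1.17 in mutants and 0.30, 0.04 and 1.09 in controls, and the difference of responses was -0.93. It rested on number 3, and only arrays of that number exceeded the level minimum. The test of the difference gave an adjusted p of 1 with limma and of 0.545 with the replicate block. Opposite signs in all 3 numbers of each genotype were found in 4.1% of all tested probe sets.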

How the results depend on the processing

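Over 35 gene results and 733 values under other settings, 699 kept their direction and their side of the threshold, 33 newly passed it and 1 turned its sign: Chrna4 for kainate in mutants, at -0.089 with its second probe set against 0.32. The count of receptor genes past the adjusted threshold stayed at 0 under all settings for the difference of responses and the 3 genotype comparisons. For kainate in mutants it was 5 without the arrays numbered 1 and 4 with the replicate block as well, and for kainate in controls 5 and 6, and 0 under every other setting. For kainate averaged over genotypes the count of 0 became 1 with quantile normalization, with median centring, with a level filter at 5 and without the intensity trend. It was 3 with the replicate block, 2 with the block and quantile normalization, and 7 without the arrays numbered 1, with or without the block. Leaving out single arrays gave 0 to 2, with 1 without array 1 of the control kainate or mutant saline group and 2 without array 1 of the mutant kainate group. The block changed no other call of the 28 genes. Grm5, averaged over genotypes, kept its sign under all settings, with adjusted p from 3.46e-05 to 0.184, and ranged from -1.13 to -0.90 when single arrays were left out.

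Over all 6334 probe sets the number past the threshold for kainate averaged over genotypes was 26, against 483 with the block and 1412 without the arrays numbered 1. It was 11 in mutants, against 23 and 596, and 10 in controls, against 37 and 637. For mutants with saline it was 0, against 9 and 5, after kainate 4, against 7 and 12, and averaged over treatments 16, against 147 and 46. The cause was not tested. Values near 4, as in Chrm5, Gpr160 and Gpr107, lie at the edge of what the arrays measured.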
